A study of Mus musculus with 4 samples.

Results

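The 7 genes described here, Vpreb1, Vpreb2, Vpreb3, Igll1, Dntt, Rag1 and Rag2, form a set of B cell precursor genes. They were chosen by name, with earlier results of these data known, as genes of the surrogate light chain, its relative Vpreb3 and genes of V(D)J recombination. Matching probe accessions to RefSeq genes found all 7 among 20284 named genes on the array. They were read by 9 probes, since Rag1 and Rag2 had 2 probes each. The RNA came from whole spleens of ICR mice, which are outbred, at 5 days of age. The dams had received, by 2 intranasal instillations on gestational days 5 and 9, either carbon black nanoparticles (CB-NP, ultrafine particles of almost pure carbon) at 95 microg/kg per instillation or distilled water at 1 mL/kg. Control and CB-NP offspring of each sex made 4 groups. Each group was 1 pool of total RNA read on 1 single-colour Agilent array, so that neither the spread between pups nor that between litters can be seen and no comparison within a sex could be tested.

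A B cell precursor first joins the gene segments of its immunoglobulin heavy chain. The recombinase made of the RAG1 and RAG2 proteins cuts the DNA, and terminal transferase, the product of Dntt, adds nucleotides at the joints that no template encodes. The finished heavy chain then pairs with the surrogate light chain, built from VpreB (Vpreb1 or Vpreb2) and lambda5 (Igll1), to form the pre-B cell receptor, whose signal drives the cell to divide and mature. Vpreb3 encodes a related protein that binds newly made immunoglobulin chains inside the cell. In the newborn mouse the spleen still holds blood-forming cells, B cell precursors among them, before bone marrow takes over. Developing T cells in the thymus also use Rag1, Rag2 and Dntt, whereas the surrogate light chain belongs to B cell precursors.

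RefSeq (assembly GRCm38.p6) gives the stretch from 250 bases before to 50 bases after the start of each gene, and all 7 genes were found there. Vpreb1, Vpreb2 and Igll1 lie on chromosome 16, Rag1 and Rag2 on chromosome 2, Vpreb3 on chromosome 10 and Dntt on chromosome 19. Igll1 is the gene next to Vpreb1, and Rag1 is the gene next to Rag2. Motifs that factors of early B cells are known to bind were searched on both strands. The E-box CAGGTG, of the kind bound by E2A, was present in 4 of the 7 windows and in 20.2% of 32851 windows of all genes. The Ikaros core TGGGAA was present in 2 of 7 and in 25.6% of all windows. The EBF core CCCNNGGG was present in 1 of 7 and in 13.7% of all windows. The 4 windows with an E-box are shown, then, as 1 of the 3 windows without any of these motifs, that of Vpreb3, which was higher with CB-NP in both sexes. The other windows without a motif, of Dntt and Rag2, belong to genes with lower readings with CB-NP in females. Each is written 5' to 3' on the strand of its gene, with motif matches in capitals. They are chr16:16869206-16869505 (minus strand) for Vpreb1, chr16:17980315-17980614 (plus) for Vpreb2, chr16:16863936-16864235 (minus) for Igll1, chr2:101649483-101649782 (minus) for Rag1 and chr10:75948050-75948349 (plus) for Vpreb3.
Vpreb1: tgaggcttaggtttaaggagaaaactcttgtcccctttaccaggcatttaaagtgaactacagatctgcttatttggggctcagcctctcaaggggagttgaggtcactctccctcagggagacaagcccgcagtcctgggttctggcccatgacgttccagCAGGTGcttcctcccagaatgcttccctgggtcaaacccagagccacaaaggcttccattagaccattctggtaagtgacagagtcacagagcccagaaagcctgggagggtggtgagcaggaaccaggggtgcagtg
Vpreb2: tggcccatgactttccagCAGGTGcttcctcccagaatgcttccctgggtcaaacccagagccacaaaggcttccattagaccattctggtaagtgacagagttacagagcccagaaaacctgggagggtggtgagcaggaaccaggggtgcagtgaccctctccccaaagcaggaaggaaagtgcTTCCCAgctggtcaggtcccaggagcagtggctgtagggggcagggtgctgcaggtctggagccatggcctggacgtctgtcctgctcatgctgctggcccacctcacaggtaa
Igll1: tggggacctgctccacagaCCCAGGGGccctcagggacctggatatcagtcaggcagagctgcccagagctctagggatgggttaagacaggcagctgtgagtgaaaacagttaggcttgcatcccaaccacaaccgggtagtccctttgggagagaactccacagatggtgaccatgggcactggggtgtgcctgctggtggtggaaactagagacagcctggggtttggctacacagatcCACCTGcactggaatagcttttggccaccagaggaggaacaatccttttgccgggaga
Rag1: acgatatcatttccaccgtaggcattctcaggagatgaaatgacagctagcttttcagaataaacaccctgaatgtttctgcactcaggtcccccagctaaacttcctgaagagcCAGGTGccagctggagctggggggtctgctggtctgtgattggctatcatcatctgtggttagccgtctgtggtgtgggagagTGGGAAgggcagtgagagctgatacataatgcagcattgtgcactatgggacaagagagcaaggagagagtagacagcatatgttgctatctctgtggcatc
Vpreb3: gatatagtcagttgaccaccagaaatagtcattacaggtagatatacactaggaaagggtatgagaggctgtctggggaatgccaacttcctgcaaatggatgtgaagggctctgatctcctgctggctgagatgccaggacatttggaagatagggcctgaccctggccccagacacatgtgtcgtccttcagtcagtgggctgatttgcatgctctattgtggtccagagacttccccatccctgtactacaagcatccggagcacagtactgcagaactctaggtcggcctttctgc
The E-box began 88 bases before the start of Vpreb1, 232 before that of Vpreb2, 8 before that of Igll1, where it is read on the other strand as CACCTG, and 135 before that of Rag1. The Ikaros core began 64 bases before the start of Vpreb2, on the other strand as TTCCCA, and 52 before that of Rag1. The EBF core of Igll1 began 231 bases before its start. A match describes the letters and is no evidence of binding. Shifted by 144 bases, the windows of Vpreb1 and Vpreb2 overlapped over 156 bases, of which 153 were identical (98.1%). The E-box of both lies at the same place in that shared stretch, so the count of windows with an E-box includes it in both copies. The 2 genes are near-identical copies, so the probe of either may also read RNA of the other, and their values are uncertain as separate measurements.

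Levels are given as processed signals, the background-subtracted intensities of the scanner. Differences are on the log2 scale after each array was set to its own 75th percentile, and the error beside a difference is the scanner's propagated error of reading the spots, which leaves out the spread between pups, litters and pools. In whole spleen, fewer cells of a type and less RNA per cell cannot be told apart. Vpreb1, Vpreb2, Vpreb3, Igll1, Dntt and Rag1 carried the scanner's flag for spots well above background on each of the 4 arrays, and Rag2 on 3. Each array had 59305 non-control spots, and between 57.29% and 59.01% of them passed that flag, no spot was saturated, and the 75th percentile ranged from 317 to 392 intensity units.

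Of the surrogate light chain genes, all 3 had lower readings with CB-NP in both sexes, but only Igll1 by more than 2 scanner errors in each. Vpreb1 read 598 in control and 564 in CB-NP males, and 690 in control and 400 in CB-NP females. The female CB-NP pool was the lowest, and the other 3 lay close together on the scaled log2 levels (0.84, 0.73 and 0.82, against 0.34). The difference with CB-NP was -0.11 (scanner error 0.20) in males and -0.48 (0.20) in females, a 1.39-fold lower level. Vpreb2, its near copy, read 67.1 in control and 59.4 in CB-NP males, and 70.7 in control and 45.1 in CB-NP females. Its order of pools was that of Vpreb1, with differences of -0.20 (0.22) in males and -0.34 (0.22) in females, both within 2 scanner errors. Igll1, which encodes the lambda5 part of the surrogate light chain, read 86.6 in control and 63.0 in CB-NP males, and 94.9 in control and 43.5 in CB-NP females. Its order of pools was that of Vpreb1 and Vpreb2, and no step between neighbouring levels exceeded 2 scanner errors. The difference was -0.48 (0.21) in males and -0.82 (0.22), or 1.76-fold, in females.

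Vpreb3 went the other way from its relatives. It read 2710 in control and 4930 in CB-NP males, and 3560 in control and 3680 in CB-NP females. On the scaled log2 levels the male and female CB-NP pools stood at 3.86 and 3.54, and the controls at 3.02 and 3.18. No step between neighbouring levels exceeded 2 scanner errors. The difference was 0.84 (0.20), or 1.79-fold higher, in males and 0.35 (0.20), or 1.28-fold, in females. Vpreb3 was the only one of the 7 genes that was not lowest in the female CB-NP pool.

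Of the recombinase genes, Rag1 was lower with CB-NP in females beyond 2 scanner errors, and Rag2 was too dim for a firm value. The brighter Rag1 probe, printed in 2 spots, read 43.8 in control and 51.0 in CB-NP males, and 68.2 in control and 30.3 in CB-NP females. Its spots read 44.2 and 43.3 in control males, 54.4 and 47.5 in CB-NP males, 65.5 and 70.9 in control females and 31.3 and 29.3 in CB-NP females. No step between neighbouring levels of the pools exceeded 2 scanner errors. Repeated spots are readings of 1 pool and are no replicates. The difference was 0.20 (0.22) in males and -0.86 (0.23), or 1.82-fold lower, in females. The other Rag1 probe stayed near background on all arrays. Rag2, the partner of Rag1 in the recombinase, read 14.4 in control and 9.66 in CB-NP males and 16.4 in control females, near the floor of the arrays, and its 7.46 in the female CB-NP pool was not well above background. Its difference in males was -0.60 (0.39). In females the control level of Rag2 lay 1.35-fold above the lowest level called well above background on the CB-NP array. That value leaves out scanner error. The measured difference was -0.83 (0.49), within 2 scanner errors, so no least size of a decrease was established. The other Rag2 probe stayed near background too.

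Dntt, the gene of terminal transferase, read 114 in control and 133 in CB-NP males, and 148 in control and 74.8 in CB-NP females. The female CB-NP pool was low, and the other 3 lay close together. The difference was 0.20 (0.21) in males and -0.68 (0.21), or 1.60-fold lower, in females. When the 4 levels of each gene were put in order, only the step between the lowest pool of Dntt and the next, 0.53, was larger than 2 scanner errors. No neighbouring levels of the other 6 genes were separated by that much.

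**Figure D1:**
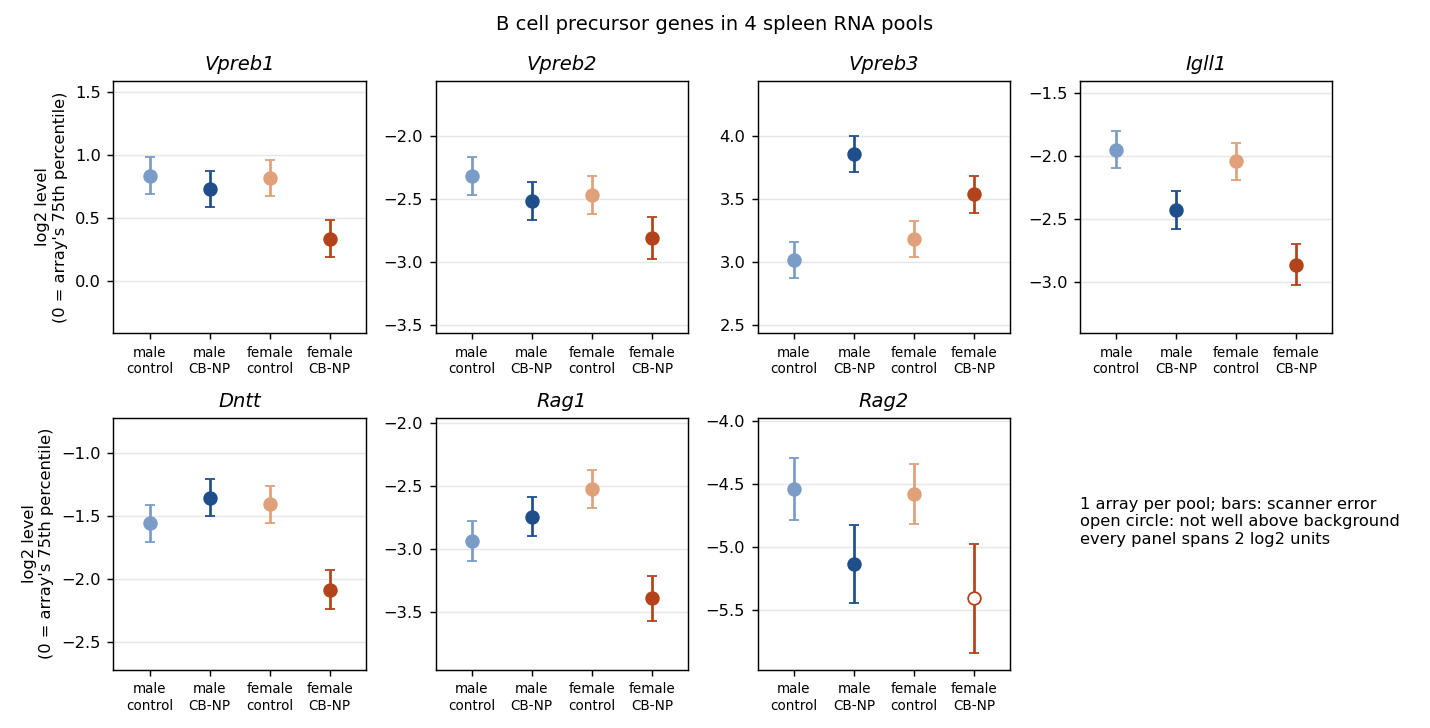
Scaled log2 level of each of the 7 genes in the 4 RNA pools (1 array per pool; 0 is the 75th percentile of the array; every panel spans 2 log2 units). Points are single pools, bars are the scanner error and not a spread between pools, and the open circle of Rag2 is a reading not well above background. In every panel but that of Vpreb3 the female CB-NP pool is the lowest.

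In males none of the 7 genes differed by 2-fold, against 0.352% of 14186 genes that were higher by that much and 0.508% that were lower. Beyond 2 scanner errors, Vpreb3 was higher (4.96% of all genes) and Igll1 lower (3.09% of all genes). The median of the 7 was -0.11, and 4 were lower, beside a median of -0.02 over all genes, of which 54.8% were lower. In females none of the 6 genes measured on both arrays differed by 2-fold, against 0.661% of 14075 genes higher and 0.433% lower. Vpreb1, Igll1, Dntt and Rag1 were lower beyond 2 scanner errors, 4 of 6 beside 6.1% of all genes, and none was higher, beside 7.57%. The median of the 6 was -0.58, beside -0.04 over all genes, of which 56.7% were lower. Vpreb1, Vpreb2 and Igll1 were lower in both sexes, as were 39.4% of the 13933 genes measured on all arrays, and Vpreb3 was higher in both, as were 27.8%. The female CB-NP pool was the lowest of the 4 for 5 of the 6 genes measured throughout, and for 34.7% of all genes. The male control pool was the lowest for Vpreb3 alone, and for 20.9% of all genes.

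The control pools of the sexes were close for all 7 genes. Female minus male was largest for Rag1, at 0.41, and none of the 7 differed by 2-fold (0.254% of 14164 genes higher in the female, 0.522% lower) or beyond 2 scanner errors (3.03% and 4.54%). Among the alternatives tried, Rag1 lay between -0.13 and 0.53 here, and the signs of Vpreb1, Igll1, Rag1 and Rag2 turned in at least 1. Among the CB-NP pools all 6 measured genes were lower in the female, with a median of -0.41 against -0.03 over all genes, of which 57.0% were lower. None of the 6 differed by 2-fold (0.39% of 14107 genes higher, 0.269% lower). Dntt, at -0.73, and Rag1, at -0.65, were lower beyond 2 scanner errors, 2 of 6 beside 2.4% of all genes, and none was higher, beside 2.62%. The female difference with CB-NP was below the male one for each of the 6. Over the 13933 genes measured on all arrays the median of this gap was -0.04, so most of them shared that direction. The gap was -0.88 (scanner error 0.30) for Dntt and -1.06 (0.32) for Rag1. It lay within 2 scanner errors for the other 4, at -0.15 (0.31) for Vpreb2, -0.34 (0.31) for Igll1, -0.37 (0.29) for Vpreb1 and -0.49 (0.29) for Vpreb3. With normexp the gap of Vpreb2 turned to 0.12, that of Igll1 was -0.09, that of Dntt -0.46 and that of Rag1 -0.36, and with its dim probe averaged in Rag1 stood at -0.21. A gap as low as that of Rag1 or lower was seen for 0.545% of the 13933 genes, as low as that of Dntt for 0.99%, and as low as that of Vpreb3 for 4.8%. For Vpreb1, Igll1 and Vpreb2 these shares were 8.5%, 10.3% and 30.5%. With 1 pool per group the gap between the sexes was not tested.

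**Figure D2:**
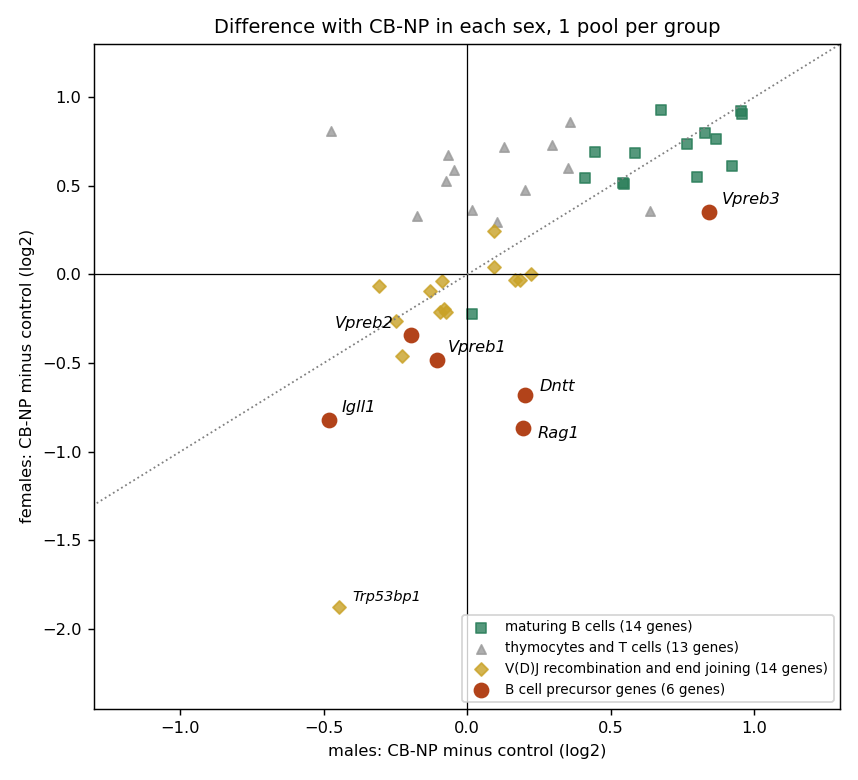
Log2 difference with CB-NP in males (horizontal) and females (vertical) for the B cell precursor genes and 3 other lists, over genes well above background on all 4 arrays, with 1 point per gene. The dotted line marks equal differences. All 6 precursor genes lie below it (Vpreb2 would not with normexp), as would most genes measured on all 4 arrays. Dntt and Rag1 lie on opposite sides of 0 in the sexes. All but 1 of the 14 genes of maturing B cells lie above 0 in both.

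A limma model with treatment and sex as terms, fitted over 14502 genes with Benjamini-Hochberg adjustment, took both sexes together. The 4 pools leave it 1 residual degree of freedom, and limma combines the disagreement between the sexes for a gene with the spread over all genes. It called none of the 7 genes for CB-NP, beside 0.0138% of genes called higher and 0.069% lower, and none for sex, beside 0.0069% and 0.0207%. The lowest unadjusted p-values of this limma fit were 0.00465 for Rag2, which rests on the reading not well above background, 0.0104 for Igll1 and 0.0258 for Vpreb3, and over all genes 1996 had an unadjusted p below 0.05. After limma's adjustment Igll1, at -0.65 (SE 0.13) and lower in both pairs, had a p of 0.31, and Vpreb3, at 0.60 (SE 0.16) and higher in both pairs, a p of 0.338. The limma estimate for Vpreb1 was -0.29 (SE 0.13, adjusted p = 0.405) and for Vpreb2 -0.27 (SE 0.10, adjusted p = 0.368). Dntt and Rag1, with unlike signs in the sexes, had limma estimates of -0.24 (SE 0.25, adjusted p = 0.644) and -0.33 (SE 0.30, adjusted p = 0.591).

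The differences depended in size on the processing. Over 6 other ways of scaling, correcting or averaging the probes, Igll1 lay between -0.48 and -0.22 in males and between -0.93 and -0.31 in females. In females Dntt lay between -0.79 and -0.32, Rag1 between -0.98 and -0.26, Vpreb1 between -0.59 and -0.39 and Vpreb2 between -0.45 and -0.03. The values nearest 0 of Igll1, Dntt, Rag1 and Vpreb2 came from normexp, which here changed the background model, used the median-pixel signal and added an offset of 50 intensity units; these were not varied one by one. With normexp, Igll1, Dntt and Rag1 in females and Igll1 in males lay within 2 scanner errors of the reported setting. Vpreb1 in females, at -0.46, stayed beyond them. Vpreb3, which read above 1000 units in every pool, stayed between 0.75 and 0.90 in males and between 0.24 and 0.45 in females. Of the differences recomputed (7 genes in males, 6 in females, without Rag2), every sign was kept except that of Rag1 in males, which was -0.11 when its dim probe was averaged in. Among genes with signals of 0 to 50 intensity units, where Rag1 and Rag2 lie, 5.14% were lower in the female pair beyond 2 scanner errors and the median was 0.12. Between 50 and 150 units, where Vpreb2, Igll1 and Dntt lie, 7.8% were lower and the median was 0.04. Whether low signal had a part in the lower female readings was not tested.

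**Figure D3:**
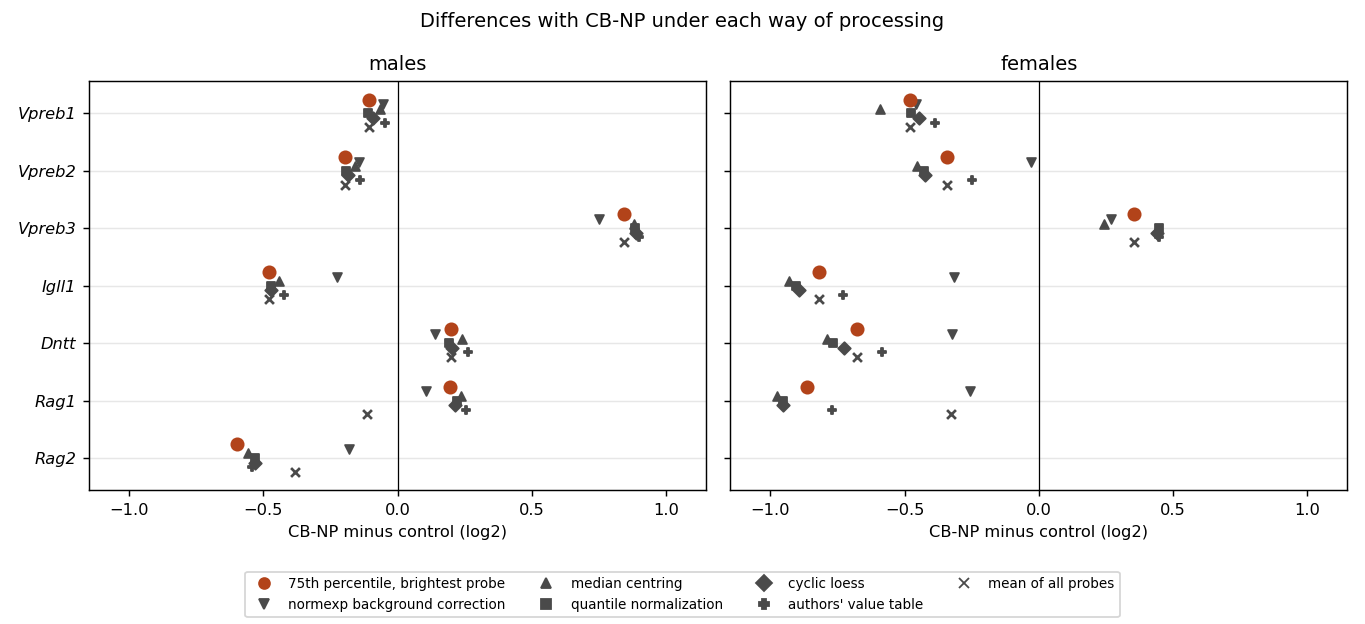
Log2 difference with CB-NP of each gene in males (left) and females (right) under the reported setting (large red circles) and 6 alternatives (dark symbols). Each symbol is 1 pool against 1 pool. Rag2 is shown in males only, since it was not well above background in the female CB-NP pool. Normexp moves Igll1, Dntt and Rag1 nearest to 0 in females, to -0.31, -0.32 and -0.26, and only Rag1 in males changes sign.

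Receptor chains shared by B cells and their precursors, and most genes of maturing B cells, were higher with CB-NP in both sexes, although limma called none of them. Cd79a and Cd79b, the signalling chains of both the pre-B cell receptor and the mature receptor, were higher by 0.61 and 0.71 in males and by 0.72 and 0.77 in females. The list of maturing B cells was higher for 14 of 14 genes in males (median 0.72) and 13 of 14 in females (median 0.69). Ms4a1, which encodes CD20, was higher by 0.92 and 0.61, and Ltb, a cytokine of lymphoid tissue, by 0.77 and 0.74. The direction of Vpreb3 was that of these genes. Set against the median of the maturing B cell list in the same pools, a measure that scaling an array by 1 factor cannot move, Igll1 stood at -1.20 in males and -1.51 in females. Vpreb1 stood at -0.83 and -1.17, Vpreb2 at -0.92 and -1.03, Dntt at -0.52 and -1.36, Rag1 at -0.53 and -1.55, and Rag2 in males at -1.32. Vpreb3 stood at 0.12 and -0.33. The median of all genes on this measure was -0.74 in males and -0.73 in females, so in males Dntt and Rag1 stood above it and Vpreb1 near it. At least 2-fold below the median of the maturing B cell list were 2 of 7 genes in males, where 9.62% of all genes were. In females 5 of 6 were, beside 13.2% of all genes. With normexp these counts were 0 of 7 and 1 of 6, and the shares of all genes 1.86% and 3.95%.

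Of other lists of genes that act in B cell precursors, some were mostly higher with CB-NP and others were split. The genes of these lists are not confined to precursors, so their values cannot be assigned to those cells. Among 18 transcription factors of early B cells, 14 were higher in males (median 0.31) and 13 in females (median 0.25). Ebf1, which commits cells to the B lineage together with Pax5, read 224 in control and 466 in CB-NP males, and 280 in control and 296 in CB-NP females, which is 1.04 higher in males and 0.39 in females. Pax5, which keeps that identity, was higher by 0.68 and 1.00, and its other probe by 0.11 and 0.33. Of 17 partners and signalling genes of the pre-B cell receptor, 16 were higher in males (median 0.38) and 14 in females (median 0.32). Ccnd3, the cyclin that drives division of pre-B cells, was at -0.06 and -0.04, and its other probe at 0.04 and -0.30. Of the receptors and niche signals of precursors, 9 of 15 measured were higher in males (median 0.11) and 10 of 16 in females (median 0.05). Il7r, the receptor of the growth factor interleukin 7, was at 0.39 and 0.05, Kit, the stem cell factor receptor, at 0.00 and 0.04, Cd24a at -0.06 and -0.15, and Cxcl12, a chemokine of the niche, at -0.11 and -0.23. Il7 itself and Enpep did not pass the background flag on any array. Of these lists limma called no gene for CB-NP after adjustment.

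Genes that carry out recombination with Rag1 and Rag2 or repair the breaks stood near 0. Of 14 measured genes 5 were higher in males (median -0.09) and 2 in females (median -0.08). Trp53bp1, which encodes a protein that protects DNA ends, read 766 in control and 571 in CB-NP males, and 1610 in control and 355 in CB-NP females. Its difference was -0.45 in males and -1.88 in females, whereas its other probe gave 0.58 and 0.42, so its probes disagreed in direction. Of 7 genes of fetal-type lymphopoiesis 3 were higher in males (median -0.07) and 1 in females (median -0.09). Lin28b, the RNA-binding protein that marks the fetal programme, was at -0.40 and -0.09, and Arid3a at 0.60 and 0.42 (other probe 0.37 and 0.18). No gene of these lists was called by limma.

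Markers of other cells moved with the groups, and their part in the results above was not tested. In the list of thymocytes and T cells, most of whose genes are also expressed by mature T cells that no longer use Rag1, Rag2 or Dntt, 9 of 14 measured genes were higher in males (median 0.12) and 13 of 13 in females (median 0.59). The summed signal of all 16 listed genes, not scaled between arrays, was 10630 in control and 11460 in CB-NP males. In females it was 12150 in control and 13800 with CB-NP. Lck, a kinase of T cells, was at 0.02 and 0.36, and Cd2 at 0.36 and 0.86. Ptcra, the pre-T cell receptor chain that defines early thymocytes, did not pass the background flag on any array. Of 10 genes of neutrophils and their precursors 9 were higher in males (median 0.10) and none in females (median -0.37). S100a8 was at -0.03 and -0.34 and S100a9 at 0.02 and -0.01. Of 10 erythroid genes 1 was higher in males (median -0.10) and 2 in females (median -0.14), with Alas2 at -0.12 and 0.12 and Slc4a1 at -0.23 and 0.01. Plasma cell genes were split evenly, with 3 of 6 higher in each sex (medians 0.01 and 0.01), Mzb1 at 0.59 and 0.64 and Xbp1 at 0.09 and -0.20. Markers of spleen stroma were present on all arrays, with 4 of 6 higher in males (median 0.24) and 5 of 6 in females (median 0.40), among them the chemokines Ccl19 at 0.52 and 0.47 and Cxcl13 at 0.42 and 0.52. Genes of the pancreas, an organ that touches the spleen, read a summed 7392 and 7086 in the male and female control pools and 636 and 603 in the CB-NP pools. Of the 7 measured in each sex, 6 were lower in males (median -3.49) and 7 in females (median -3.64), and with normexp the medians were -1.66 and -2.20. Ctrb1 was at -6.15 and -4.65 and Cpa1 at -4.73 and -3.93. Limma called 4 of the 14 listed pancreatic genes lower. Those 4 were well above background in the control pools only, so none was among the 7 measured in each sex. Their estimates rest on CB-NP readings not well above background.

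**Figure D4:**
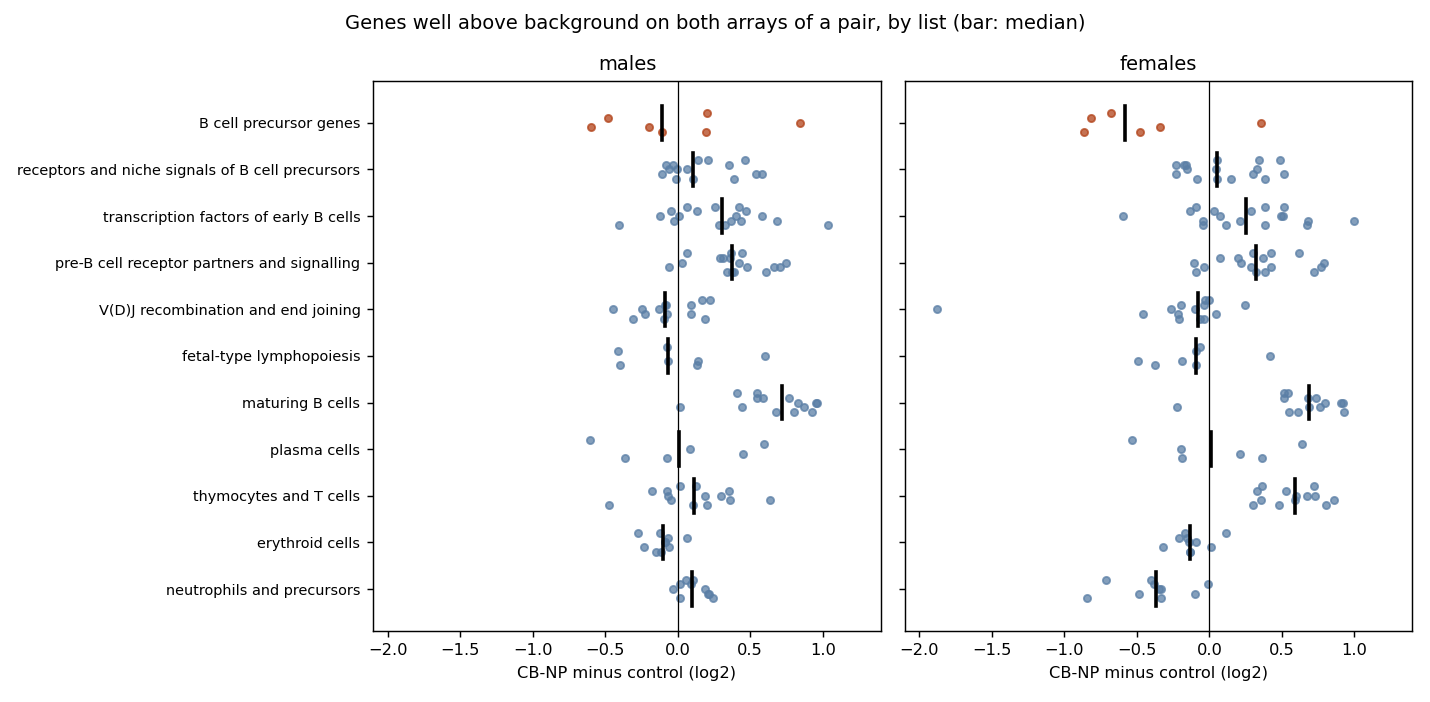
Log2 difference with CB-NP in males (left) and females (right) for the precursor genes (red) and 10 other lists (blue), over genes well above background on both arrays of the pair. Each point is a gene in 1 pool against 1 pool, and black bars are list medians. The precursor genes have a median of -0.11 in males and -0.58 in females, while that of maturing B cells is 0.72 and 0.69.

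List medians nearest to 0 had no settled direction, since they turned sign under at least 1 alternative scaling, correction or averaging. These were the plasma cell list in both sexes, fetal-type lymphopoiesis in males, and the receptors and niche signals and the recombination genes in females.

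The genes differed from each other in the shape of their profile over the 4 pools, measured as the root mean square distance between levels centred on each gene's mean. Vpreb1 and Vpreb2 were 0.06 apart, and Dntt and Rag1 0.11. Vpreb1 and Igll1, which share a receptor and a locus, were 0.18 apart. Vpreb3 was 0.44 to 0.63 from the others, farthest from Igll1. Over all 13932 other genes, the profiles nearest to Vpreb1 were Atp1b2 (0.02) and Map3k5 (0.02), and to Vpreb2 Rnf217 (0.01) and Gm4710 (0.01). Those of Vpreb3 were Hecw2 (0.04) and Niban3 (0.04), of Igll1 Adora1 (0.06) and Gabbr2 (0.07), of Dntt Pkp2 (0.03) and Gm4861 (0.04), and of Rag1 Ly6c1 (0.03) and Cish (0.06). Within 0.1 of Vpreb1 lay 3.97% of all genes and within 0.1 of Vpreb2 6.96%, so their profiles were common ones. Within 0.1 of Vpreb3, Dntt, Igll1 and Rag1 lay 0.337%, 0.251%, 0.165% and 0.165%. With 4 pools such likeness describes these arrays only.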

How the data were processed

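Spleen RNA of 4 groups was measured, 1 pool and 1 array each. The array was Agilent design 028005 (mouse build mm9), labelled with Cy3 alone, and per the file headers the reading software was Agilent Feature Extraction 10.10.1.1. The deposited processed signal is an intensity on a linear scale, background-subtracted and not normalized between arrays, per the file headers. Other deposited columns are its propagated error, median-pixel spot and local background intensities (used for normexp, in place of the mean-pixel signal planned), and flags of 0 or 1. The authors' deposited value table is an intensity that equalled the processed signal times 1 factor per array (2.64 to 3.49), with column medians from 68.9 to 79.4. The target of that scaling is not given in the sources used here.

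The log2 signal of each array was centred on its 75th percentile over non-control spots, and spots of a probe were averaged without those flagged as outliers. Probes were named by RefSeq accession (assembly GRCm38.p6, for names and neighbours), which matched 26762 of 55681, and each gene was read from its brightest probe. A gene entered a comparison when well above background on both arrays. Differences were counted at 2-fold and beyond 2 scanner errors. Limma (3.58.1, R 4.3.3) was fitted with treatment and sex over the 14502 genes that passed the background flag on 2 or more arrays, adjusted by Benjamini-Hochberg at 0.05, and was tested on simulated data. Python 3.11.15, pandas 2.3.3, numpy 2.4.6 and matplotlib 3.10.9 did the rest. All arrays lay on 1 slide, and position on it cannot be told apart from group. Precision is limited by the number of arrays.

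The 7 genes and the gene lists were chosen with earlier results of these data known. Named were the 7 genes with all their probes, the 2 genes nearest in profile to each, Ebf1, Pax5, Il7r, Cd79a, Cd79b, Ms4a1, Ptcra, Kit and Lin28b, and from each list up to 4 measured genes that differed by 2-fold or more in a sex or, where none did, the 2 brightest. Not every pancreatic gene that met this rule is named. Of the lists, 2 genes are not reported here and were left out of the list counts.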

Additional observations from a re-analysis of the deposited data

Results flagged for a closer look

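The difference with CB-NP pointed opposite ways in the sexes for Dntt and Rag1. The female minus male difference was -0.879 for Dntt (0.20 in males, -0.68 in females) and -1.059 for Rag1 (0.20 in males, -0.86 in females), on the log2 scale. Both male values were within 2 scanner errors of 0. The male value of Rag1 turned to -0.11 when its dim probe was averaged in. Over the alternatives the gap between the sexes lay between -1.03 and -0.46 for Dntt and between -1.21 and -0.21 for Rag1. With 1 pool per group the difference between the sexes was not tested.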

How the results depend on the processing

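Values of the 7 genes, of their median and of the median of maturing B cell genes were recomputed under alternatives. Of these, 310 kept their direction and their side of the threshold or moved by less than 1 scanner error. Another 15 moved by more, and 3 passed the limma threshold only under an alternative. These 3 were Vpreb3 with normexp (0.51, adjusted p = 0.0032) and with an intensity trend in limma's prior (adjusted p = 0.0328), and Rag2 with median centring (-0.75, adjusted p = 0.029), which rests on a reading not well above background. The cause was not tested. Genes at least 2-fold different numbered 122 in males, 154 in females, 110 between controls and 93 between CB-NP pools. With normexp they numbered 35, 50, 15 and 13. Without the filter on dim genes they numbered 1100, 1104, 1036 and 1020, since readings near background then entered. The split of higher against lower moved from 50 and 72 to 69 and 61 in males with the authors' value table. In females it moved from 93 and 61 to 20 and 30 with normexp, 65 and 88 with median centring, 77 and 79 with quantile normalization and 140 and 50 with the authors' value table. Between controls it moved from 36 and 74 to 9 and 6 with normexp, 57 and 46 with median centring, 51 and 54 with quantile normalization and 48 and 54 with cyclic loess. With median centring, the all-gene median shifted by -0.11 in females and by 0.12 between controls. Limma called 12 genes for CB-NP in the reported setting, 612 with normexp, 347 with median centring, 381 with the trend, 3 with quantile normalization, 3 with cyclic loess and 2 with the authors' value table. It called 0 with genes well above background on all 4 arrays (2114 at an unadjusted p below 0.05) and 0 without the filter (1363). For sex limma called 4, then 77 with normexp, 181 with median centring, 16 with the trend, and 0 with all 4 arrays (801 unadjusted) and 0 without the filter (837). The limma fit with sex as a term already pairs the pools within a sex, and with 1 pool per group no replicate could be left out. Rag2 and the dim probes of Rag1 and Rag2 are limited by signal over background.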
